A study of Mus musculus with 675 samples.

Results

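The fibrillar collagen genes and the genes of collagen chaperoning and processing were followed across the cell classes of the mouse aorta. The set holds 10 of the 46517 gene rows of the count table, chosen by name as the rows whose Ensembl identifiers carry these symbols in GRCm38. There are 7 chain genes, namely Col1a1 and Col1a2 of type I collagen, Col3a1 of type III, Col5a1, Col5a2 and Col5a3 of type V, and Col11a1 of type XI. The other 3 act on the chains: Serpinh1 encodes the chaperone HSP47, Plod1 a lysyl hydroxylase and Pcolce an enhancer of propeptide removal.

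The study is an inventory of mouse smooth muscle made with Smart-seq2, a plate method that reads whole transcripts of 1 sorted cell per well and adds no molecular identifiers. The 675 cells came from male C57BL/6 mice aged 10 weeks, all untreated as far as the labels say and with the tissue label aorta. They came as pool A (2 mice on a plate) and pool B (2 other mice on another plate), so the pool is the replicate (n = 2). How cells were gated for sorting is unstated in the labels. Plate and mice cannot be told apart. With the pool as a block, a p-value below weighs a difference between classes against its variation between these 2 pools. Where the block is left out, the spread between the pools enters as well. The extraction protocol mentions mouse heart where the tissue label says aorta, and the cells are called aortic here only by that label. Smooth muscle-like cells of pool B held the cardiac muscle marker genes Tnnt2 at 143.6 CPM (counts scaled to a common total per class) and Myh6 at 23.7 CPM, and those of pool A held them at 24.8 and 0.0577 CPM. A cell of pool A held a median of 279661 counts (52000 to 608582) and a cell of pool B 299296 (51886 to 713700).

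Fibrillar collagens are made as long procollagen chains that are hydroxylated and joined into triple helices in the endoplasmic reticulum. HSP47 binds and stabilises the helix there, and after secretion the end propeptides are cut off so that the rods can line up into fibrils. In the arterial wall types I and III carry the tension, and small amounts of type V start fibrils and limit their width. In the artery such collagen is laid down both by smooth muscle cells of the media and by fibroblasts of the adventitia.

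The start regions of the chain genes differ in their base composition. RefSeq promoter windows (GRCm38.p6; 250 bases before to 50 after the start) were at hand for 8 of the 10 genes, leaving Col1a1 and Col5a2. Windows were searched on both strands for the motif TATAAA, the motif CCAAT, the motif GGGCGG and the CArG box, a serum response element known from contractile genes; a CArG box can hold TATAAA or CCAAT within it. The 250 bases before the start are shown for 3 chain genes that stand for a high, a moderate and a near-absent transcript in smooth muscle-like cells, with every match to a searched motif in capitals.
Col3a1 promoter, chr1:45311288-45311537 (plus strand): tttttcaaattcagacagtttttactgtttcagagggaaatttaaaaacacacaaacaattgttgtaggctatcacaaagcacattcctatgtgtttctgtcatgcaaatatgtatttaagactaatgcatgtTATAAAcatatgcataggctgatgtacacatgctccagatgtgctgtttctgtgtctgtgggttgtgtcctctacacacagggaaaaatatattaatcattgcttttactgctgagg
Col5a1 promoter, chr2:27886175-27886424 (plus strand): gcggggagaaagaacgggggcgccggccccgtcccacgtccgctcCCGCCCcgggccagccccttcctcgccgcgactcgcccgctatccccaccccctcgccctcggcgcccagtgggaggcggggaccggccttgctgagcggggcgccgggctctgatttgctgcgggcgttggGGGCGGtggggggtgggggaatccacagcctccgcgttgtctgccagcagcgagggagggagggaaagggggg
Col11a1 promoter, chr3:114030290-114030539 (plus strand): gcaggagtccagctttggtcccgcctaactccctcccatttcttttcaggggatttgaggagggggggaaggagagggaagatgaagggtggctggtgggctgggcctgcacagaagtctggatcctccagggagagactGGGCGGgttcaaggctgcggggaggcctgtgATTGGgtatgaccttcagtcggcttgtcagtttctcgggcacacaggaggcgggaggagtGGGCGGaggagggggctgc
Col3a1 had 35.2% G and C in these 250 bases, while the other 7 genes had 58.8% to 76.4%. In the whole windows GGGCGG stood in 7 of the 8 genes, all but Col3a1, against 35.7% of all 32851 windows. CCAAT stood in 3 (Col1a2, Col5a3 and Col11a1) against 37.4% of all windows. TATAAA stood in 2 (Col3a1 and Plod1) against 13.6%. The CArG box was found in 0 of the 8 windows, against 1.63% of all. These are letter matches in a short window and say nothing of whether a factor binds.

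Cells were clustered on genes that exclude the 10 members and all pathway lists below, and clusters were named from fixed markers. This gave 533 smooth muscle-like cells (SM-like below; 79.3% of pool A and 78.6% of pool B), 93 fibroblast-like cells (FB-like; 48 and 45 cells), 33 endothelial-like cells (EC-like; 22 and 11) and 16 cells (6 and 10) in a cluster that could not be named. The markers also served for clustering and naming, so their levels describe the classes and do not test the names. Myh11, the smooth muscle myosin, was at 4281 and 3335 CPM in SM-like cells of pools A and B. Dcn, a proteoglycan gene of fibroblasts, was at 5188 and 3311.5 CPM in FB-like cells, and Cdh5, the endothelial cadherin, at 799.7 and 240.7 CPM in EC-like cells. The FB-like and EC-like clusters were nevertheless mixed. With a finer clustering, 31 of the 93 FB-like cells (9 in pool A, 22 in pool B) became SM-like and 12 of the 33 EC-like cells (8 and 4) became pericyte-like. The 62 FB-like cells (39 and 23) and 21 EC-like cells (14 and 7) that did not change class are called kept cells below. The summed level of the 7 smooth muscle markers was 19396.5 and 17456 CPM in SM-like cells (pool A, then pool B), 4330 and 9855 in all FB-like cells, 1819 and 3063 in kept FB-like cells, 8063 and 7747 in all EC-like cells and 2106 and 3260 in kept EC-like cells. Each comparison is therefore given with all cells of a class first and with kept cells beside it.

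All cells of all classes held at least 1 count of a fibrillar chain. Together the 7 chains made up 4388 and 3729 CPM in pools A and B of the SM-like class, 15734 and 14101 CPM in kept FB-like cells, and 93.8 and 424 CPM in kept EC-like cells. The chain total was thus lowest in the kept EC-like cells and highest in the kept FB-like cells in both pools, and the pool values of these classes did not overlap. Kept EC-like cells of pool B, with the higher chain total, also held more of the 6 pericyte markers, at a summed 2746 CPM against 703 in pool A, most of it Rgs5 at 1915 and 546 CPM; the part of this in their chain levels was not tested. In single SM-like cells it ranged from 90.4 to 9238 CPM (median 4282) in pool A and from 391 to 9126 CPM (median 3431) in pool B. Type I and type III chains made up most of it. Col1a2 gave 36.03% and 38.8% of the chain counts in SM-like cells, Col3a1 28.8% and 25.6%, Col1a1 23.8% and 26.4%, Col5a2 6.40% and 5.52%, and Col5a1 4.87% and 3.66%.

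**Figure D1:**
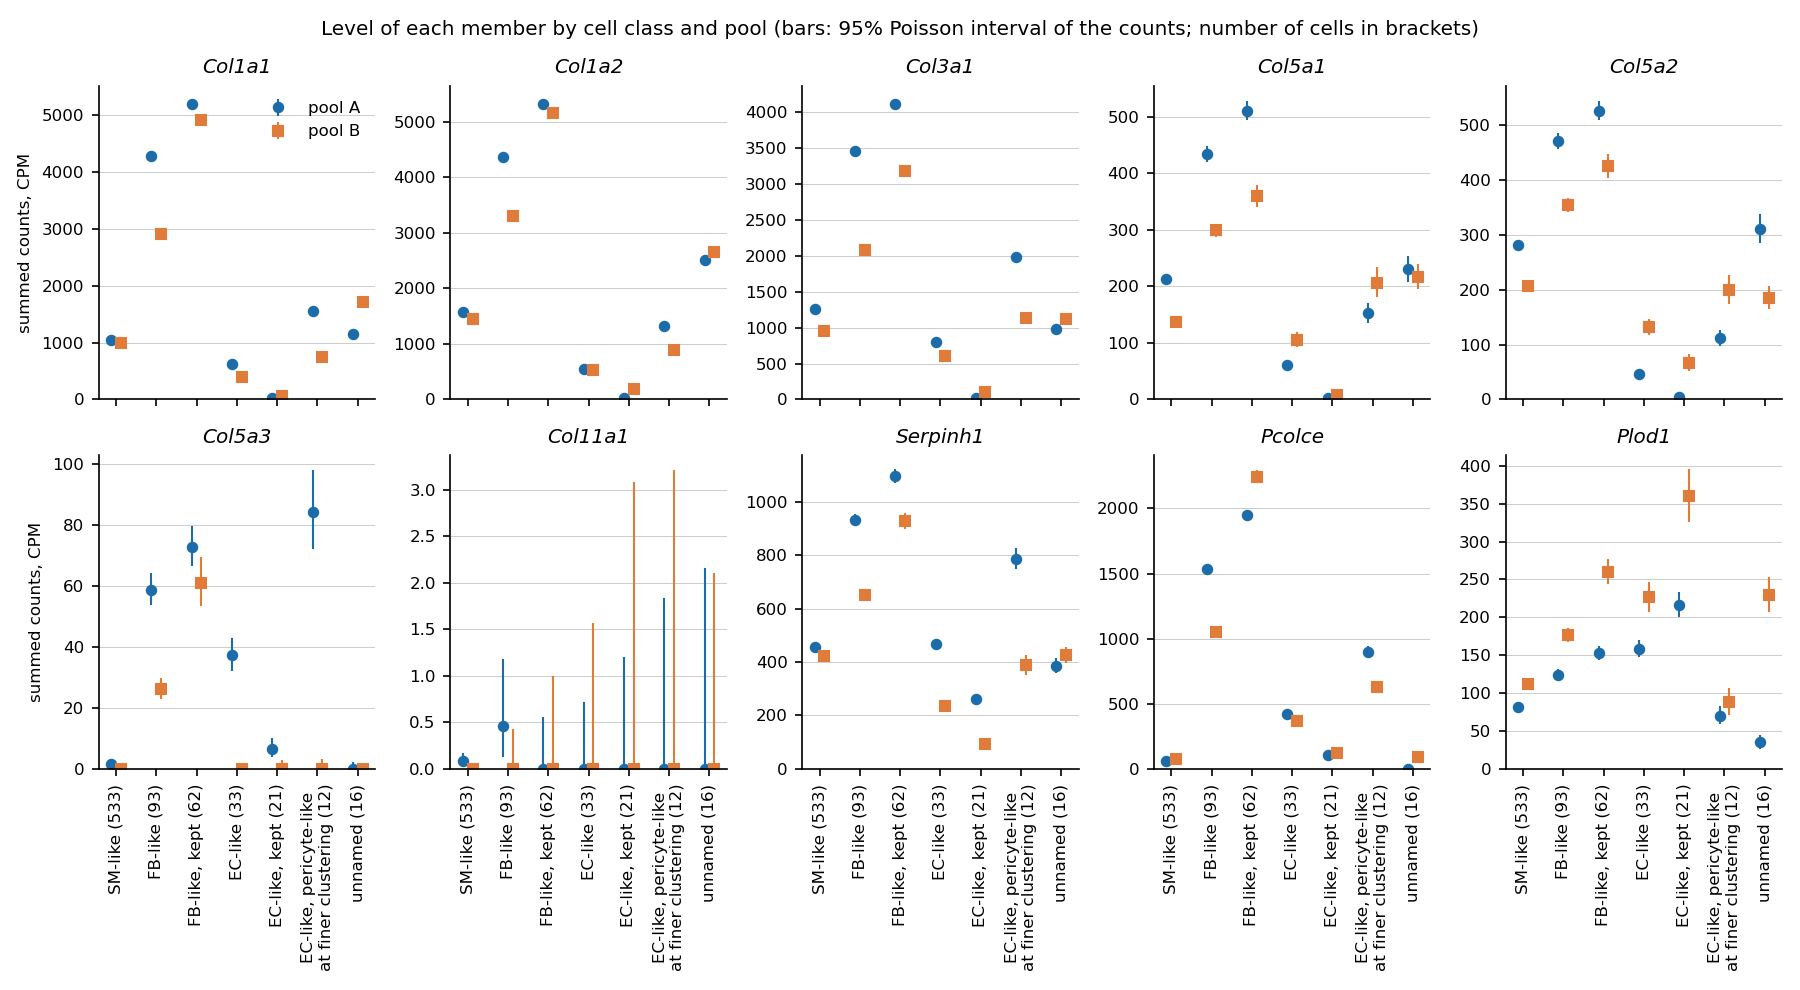
Level of each of the 10 genes in CPM (counts scaled to a common total per class) by cell class, with pool A as circles, pool B as squares and bars for the exact 95% Poisson interval of the counts; "kept" marks cells that did not change class in the finer clustering. Kept FB-like cells are highest in both pools for Col1a1, Col1a2, Col3a1, Col5a1, Col5a2, Serpinh1 and Pcolce, while kept EC-like cells are highest for Plod1.

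Col1a1, the alpha 1 chain of type I collagen (ENSMUSG00000001506; GRCm38 chromosome 11, 94936224 to 94953042, plus strand), was at 1045 and 986 CPM in SM-like cells of pools A and B (1015 ± 41.4, SD, n = 2). It was at 4285 and 2916 CPM in all FB-like cells (3600.4 ± 969), 5196 and 4913 in kept FB-like cells, 629 and 397 in all EC-like cells and 21.7 and 61.9 in kept EC-like cells. The 3 classes did not overlap in their pool values. Col1a2, the alpha 2 chain (ENSMUSG00000029661; chromosome 6, 4504814 to 4541544, plus strand), was at 1581 and 1447 CPM in SM-like cells (1514 ± 94.8), 4368 and 3300.0 in all FB-like, 5323 and 5159 in kept FB-like, 545 and 533 in all EC-like and 32.8 and 182.3 in kept EC-like cells. Col3a1, the chain of type III collagen (ENSMUSG00000026043; chromosome 1, 45311538 to 45349706, plus strand), was at 1266 and 953 CPM in SM-like cells (1109.6 ± 220.9), 3461 and 2082 in all FB-like, 4106 and 3183 in kept FB-like, 798 and 609.7 in all EC-like and 26.9 and 105.3 in kept EC-like cells. For all 3 chains the order of the classes was the same in both pools, with FB-like cells above SM-like cells and these above EC-like cells.

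Type V collagen followed the same order at a lower level, apart from its alpha 3 chain. Col5a1, the chain found in most type V trimers (ENSMUSG00000026837; chromosome 2, 27886425 to 28039514, plus strand), was at 213.7 and 136.5 CPM in SM-like cells of pools A and B (175.1 ± 54.6, SD, n = 2), 510.3 and 360.02 in kept FB-like and 1.95 and 8.36 in kept EC-like cells. Col5a2, the alpha 2 chain (ENSMUSG00000026042; chromosome 1, 45374321 to 45503282, minus strand), was at 280.9 and 205.7 CPM in SM-like cells (243.3 ± 53.2), 526 and 425 in kept FB-like and 3.89 and 66.05 in kept EC-like cells. Pool A was above pool B for both chains in SM-like and kept FB-like cells, and below it in kept EC-like cells. Col5a2 lies next to Col3a1, with 24614 bases between them on opposite strands. Exons of Col3a1 overlap a short stretch of Gm47302, and those of Col5a1 overlap genes on the other strand.

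Col5a3 (ENSMUSG00000004098; chromosome 9, 20770050 to 20815067, minus strand), the rarer alpha 3 chain of type V, was nearly absent from SM-like cells. They held 130 counts in pool A (1.501 CPM) and 6 in pool B (0.0739 CPM), and 1 cell carried 91.5% of the pool A counts. A count was found in 11 SM-like cells of pool A (3.78%; exact 95% interval 1.90 to 6.66%) and 5 of pool B (2.07%; 0.674 to 4.75%). Among kept FB-like cells a count was found in 10 of 39 (25.6%; 13.04 to 42.1%) and 7 of 23 (30.4%; 13.2 to 52.9%), at 72.9 and 61.1 CPM. FB-like cells were shallower than SM-like ones, with a median of 164916 and 171129 counts in all FB-like cells of pools A and B, against 293115 and 329324 in SM-like cells. In the EC-like class Col5a3 was at 37.3 CPM in pool A and 0 in pool B, and most of this lay in the pericyte-like cells, at 84.4 and 0 CPM.

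Col11a1 (ENSMUSG00000027966; chromosome 3, 114030540 to 114220718, plus strand), whose chain is known from cartilage, was at the detection limit in every class. It had a count in 2 SM-like cells of pool A, with 7 counts in all, and in 0 of pool B, which allows a share of up to 1.24%. It had a count in 1 of 48 FB-like cells of pool A and 0 of 45 of pool B, in 0 of 62 kept FB-like cells (up to 4.84%) and in 0 of 33 EC-like cells (up to 9.09%). It did not pass the filter on low counts in any comparison of classes, so 9 of the 10 genes were tested there.

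Serpinh1, the collagen-specific chaperone of the endoplasmic reticulum (ENSMUSG00000070436; chromosome 7, 99345376 to 99353239, minus strand), was at 458 and 422 CPM in SM-like cells of pools A and B (440.0 ± 25.1, SD, n = 2). It was at 1095 and 927 CPM in kept FB-like cells and 259.99 and 91.96 in kept EC-like cells. Over all EC-like cells Serpinh1 was at 467.6 and 237.3 CPM, above SM-like cells in pool A and below them in pool B. With kept EC-like cells the classes kept the order of the type I chains in both pools. There the EC-like level lay far closer to the others than it did for the chains. Plod1, which hydroxylates lysines used later in cross-links (ENSMUSG00000019055; chromosome 4, 147909753 to 147936767, minus strand), was at 82.4 and 111.6 CPM in SM-like cells (96.98 ± 20.7), 152.8 and 260.03 in kept FB-like and 216.2 and 359.5 in kept EC-like cells. Plod1 alone among the 10 genes was highest in kept EC-like cells in both pools.

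Pcolce, whose protein binds procollagen and speeds the removal of its C-terminal propeptide (ENSMUSG00000029718; chromosome 5, 137605103 to 137613784, minus strand), was low in SM-like cells. It was at 62.3 and 72.8 CPM in SM-like cells of pools A and B (67.5 ± 7.43, SD, n = 2), 1538 and 1055 in all FB-like, 1949.9 and 2242 in kept FB-like, 422 and 372 in all EC-like and 108.7 and 123.7 in kept EC-like cells. Of the 3 named classes SM-like cells were lowest in both pools, below even the kept EC-like cells. Its exons overlap short stretches of Fbxo24 and of Gm36266 on the other strand, and the sources used here do not say whether counting used strand.

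Compared per length, Col1a2, Col3a1, Col1a1 and Serpinh1 were the most abundant of the 10 transcripts in SM-like cells, but their order depends on the length used. Per kilobase of the longest transcript they stood at 283.1 ± 17.7, 199.4 ± 39.7, 171.2 ± 6.98 and 193.5 ± 11.04 CPM (SD, n = 2), and the values of Col3a1 overlapped those of both Serpinh1 and Col1a1. Per kilobase of all exons joined the same 4 were at 121.8, 113.04, 154.7 and 180.1 CPM. Below them, per kilobase of the longest transcript, came Col5a2 at 36.7 ± 8.03, Pcolce at 26.2 ± 2.89, Plod1 at 23.7 ± 5.05 and Col5a1 at 20.8 ± 6.49, and the ranges of Pcolce, Plod1 and Col5a1 overlapped.

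The first comparison asked whether SM-like cells differed from FB-like cells of the same pools in these genes. Pcolce and Col1a1 were lower in SM-like cells. Over all cells of both classes, Pcolce had a log2 fold change of SM-like over FB-like cells of -4.24 ± 0.31 (SE; edgeR quasi-likelihood adjusted p = 0.0106) and Col1a1 one of -1.80 ± 0.23 (edgeR adjusted p = 0.0436). That is 2 of 9 tested members, against 1.10% of the 8694 genes tested that were called lower; none was called higher. The other 7 were not called, with log2 fold changes of -1.33 ± 0.21 for Col1a2 (edgeR adjusted p = 0.0764), -1.29 ± 0.21 for Col3a1, -1.08 ± 0.23 for Col5a1, -0.77 for Col5a2, -6.69 ± 1.14 for Col5a3, -0.83 for Serpinh1 and -0.63 for Plod1. The median of the 9 was -1.29, beside 0.13 over all genes tested. The call of Col1a1 was lost without the pool as a block (edgeR adjusted p = 0.0668), with DESeq2 size factors (0.07) and with deep cells only, those of at least 2000 genes and 100000 counts (0.0684), whereas Pcolce was called in each of these.

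With the 62 kept FB-like cells, 7 of 9 tested members were lower in SM-like cells, against 3.27% of 8498 genes tested that were called lower. They were Pcolce (-5.03 ± 0.23, edgeR adjusted p = 0.000229), Col1a1 (-2.39 ± 0.19, p = 0.00134), Col1a2 (-1.87 ± 0.18, p = 0.00275), Col3a1 (-1.80 ± 0.19), Serpinh1 (-1.27 ± 0.21), Col5a1 (-1.40 ± 0.24) and Col5a3 (-7.49 ± 1.34, p = 0.0265). Col5a2 and Plod1 were not called, with -1.05 and -1.13. The median of the 9 was -1.80, beside 0.29 over all genes tested. SM-like cells held the fibroblast markers at a summed 1111 and 1173 CPM in pools A and B, of which Gsn gave 1002 and 1068, while Dcn and Pdgfra were at 43.03 and 53.7 and at 13.3 and 9.69 CPM. Restricting SM-like cells to those with under 100 CPM of fibroblast markers other than Gsn gave -4.50 for Pcolce and -1.80 for Col1a1 against all FB-like cells, both still called.

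**Figure D2:**
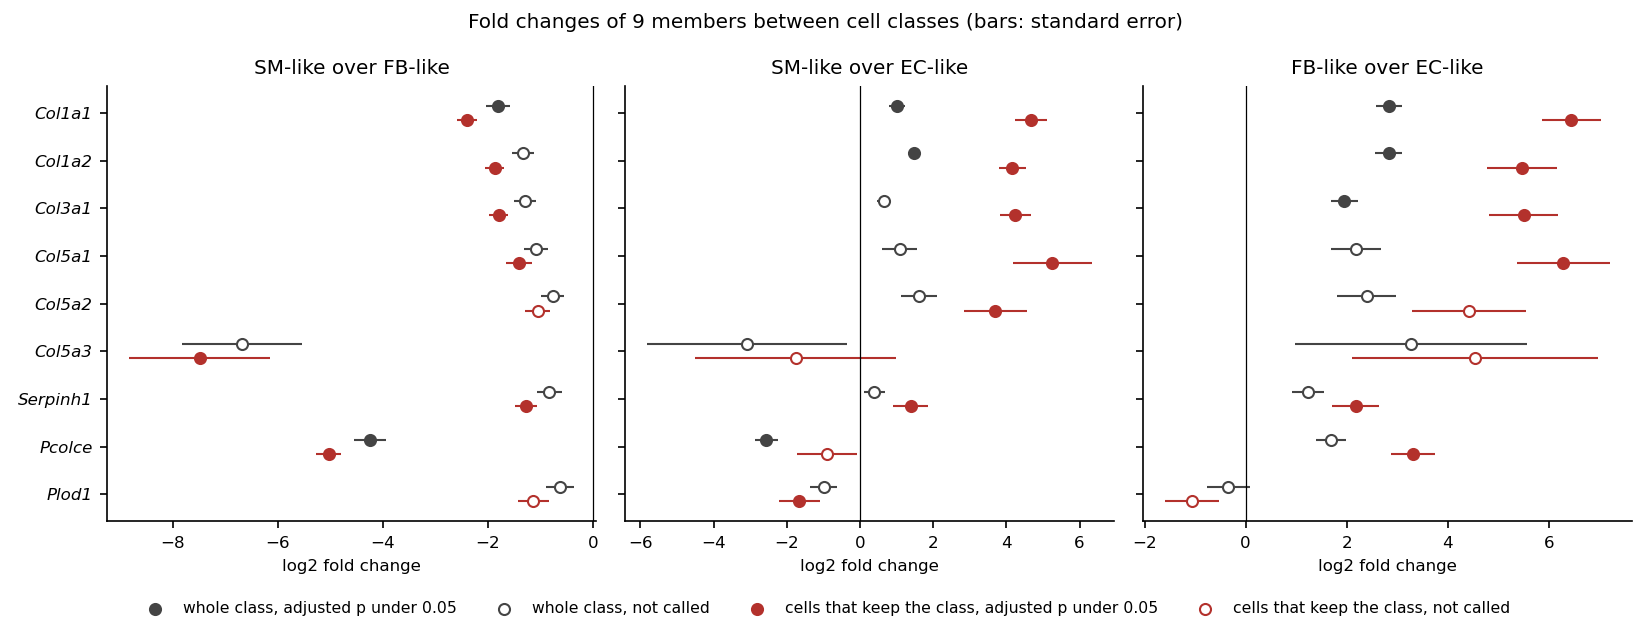
Log2 fold changes ± SE of 9 members between SM-like, FB-like and EC-like cells, with all cells of a class in grey and kept cells of the FB-like class (left panel) or the EC-like class (other panels) in red; filled points passed an adjusted p of 0.05. In the left panel all 9 values are below 0 and Pcolce lies at -4.24 and -5.03; with kept EC-like cells the chains other than Col5a3 lie at 3.70 or more over EC-like cells.

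The second comparison set SM-like cells against EC-like cells. Over all cells, Col1a2 (1.48 ± 0.17, edgeR adjusted p = 0.00108) and Col1a1 (1.01 ± 0.21, p = 0.0299) were higher and Pcolce was lower (-2.56 ± 0.32, p = 0.00173) in SM-like cells. These 3 of 9 stand against 4.82% of 8278 genes called in either direction. The call of Col1a1 was lost without the pool as a block (edgeR adjusted p = 0.161), with all 3 classes in 1 fit (0.0864) and with deep cells (0.0633). With kept EC-like cells 7 of 9 were called, against 7.38% of 8247 genes. Col5a1 (5.25 ± 1.08), Col1a1 (4.67 ± 0.44), Col3a1 (4.25 ± 0.43), Col1a2 (4.17 ± 0.38), Col5a2 (3.70 ± 0.87) and Serpinh1 (1.39 ± 0.48, edgeR adjusted p = 0.0485) were higher in SM-like cells. Plod1 was lower (-1.65 ± 0.56, edgeR adjusted p = 0.0414). Pcolce was no longer called, with -0.90 ± 0.82. The pericyte-like cells, which that fit leaves out, held Pcolce at 900.2 and 629 CPM. The median of the 9 was 0.65 over all EC-like cells, beside 0.43 for all genes tested, and 3.70 with kept cells, beside 0.73.

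The third comparison set FB-like cells against EC-like cells. Col1a1 (2.83 ± 0.26, edgeR adjusted p = 0.00666), Col1a2 (2.83 ± 0.27) and Col3a1 (1.96 ± 0.27, p = 0.0281) were higher in FB-like cells, 3 of 9 tested against 0.697% of 6745 genes called higher. The call of Col3a1 was lost without the pool as a block (edgeR adjusted p = 0.0855) and with deep cells (0.0605). With kept EC-like cells 6 of 9 were higher, against 2.02% of 6479 genes: Col1a1 (6.44), Col5a1 (6.29), Col3a1 (5.50), Col1a2 (5.46), Pcolce (3.31) and Serpinh1 (2.18). The 3 comparisons share their classes, so their fold changes are not independent of each other.

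The pericyte-like and unnamed cells are described by their levels, with no test. The 12 pericyte-like cells (8 and 4), with the pericyte markers at a summed 3795 and 3926 CPM, held the 7 chains at 5208 and 3181 CPM in pools A and B, and the kept EC-like cells beside which they had clustered at 93.8 and 424. Their Col1a1 was at 1556 and 745 CPM, Col3a1 at 1976 and 1134, and Serpinh1 at 785 and 388. The pericyte-like cells held Myh11 at 3455 and 1972 CPM and Acta2 at 6576 and 4986 CPM. SM-like cells held these at 4281 and 3335 and at 6702 and 5773 CPM. Higd1b, a pericyte marker, was at 87.8 and 346.7 CPM in pericyte-like cells, against 0.912 and 0.0739 in SM-like cells. Smooth muscle was the runner-up name of the pericyte-like cluster, and how far these cells differ from smooth muscle was not tested. The 16 unnamed cells, led by Gm21861, Adamtsl1, Msx2, Frzb and Lrrtm3, fell in the finer clustering into 1 cluster with 11 SM-like cells, and the platelet markers Itga2b, Ppbp and Gp9 were among its leading genes. The unnamed cells held the platelet markers at a summed 137.4 and 32.5 CPM, against 100.9 and 24.1 in SM-like cells. They held the 7 smooth muscle markers at a summed 14396 and 15218.5 CPM in pools A and B, against 19396.5 and 17456 in SM-like cells. They also held the 6 pericyte markers at a summed 3193.4 and 2858.6 CPM, against 1419.1 and 1023.7 in SM-like cells. They had Col1a2 at 2518 and 2657 CPM, Col1a1 at 1160.4 and 1713 and Col3a1 at 979 and 1113. Their Col1a2 lay between SM-like and kept FB-like cells in both pools. Their Pcolce was 1.17 and 90.2 CPM.

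Other genes of the collagen pathway were read from 8 lists with 78 genes, of which 69 were tested between SM-like and FB-like cells. Among the called genes, 4 that cut or degrade procollagen and collagen were lower and 1 of chain hydroxylation was higher in SM-like cells. Of 6 tested genes of propeptide removal 2 were lower, Adamts2 (-2.53 ± 0.26), which removes the N-terminal propeptide, and Bmp1 (-2.04 ± 0.25), which removes the C-terminal one. Of 8 tested genes of turnover 2 were lower, the gelatinase Mmp2 (-3.46 ± 0.37) and the protease Ctsk (-3.23 ± 0.40). Of 15 tested genes of hydroxylation and glycosylation 1 was higher, the prolyl 3-hydroxylase P3h2 (3.88 ± 0.46), at 102.5 and 74.3 CPM in SM-like cells and 8.45 and 4.07 in FB-like cells. Over all genes tested, 1.10% were called lower and 0.0690% higher. In the lists of export, cross-linking, receptors, regulators and other fibrillar chains, 0 of 40 tested genes were called. Each of the 5 called genes lost its call with DESeq2 size factors, and only Adamts2 and Ctsk kept it without the pool as a block.

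With kept FB-like cells 15 list genes were lower and 5 higher of 67 tested, against 3.27% of all genes tested called lower and 2.61% called higher. Of 8 tested turnover genes 7 were lower, led by Mmp2 (-4.19 ± 0.25), Ctsk (-4.08 ± 0.32), Fap (-3.61 ± 0.75) and the metalloproteinase inhibitor Timp1 (-3.07 ± 0.42), with a median of -2.83 beside 0.29 over all genes tested. The list holds both proteases and inhibitors: the inhibitors Timp2 and Timp3 and the collagen receptor Mrc2 were lower as well. Of 5 tested genes of propeptide removal 3 were lower, namely Adamts2 (-3.17 ± 0.23), Bmp1 (-2.71 ± 0.28) and Pcolce2 (-2.58 ± 0.27), the second propeptidase enhancer. Pcolce2 was at 106.05 and 109.6 CPM in SM-like cells and 744 and 501 in kept FB-like cells. In hydroxylation P3h2 (4.08 ± 0.57) and the channel gene Tmem38b (2.10 ± 0.40) were higher and P3h3 (-1.39 ± 0.27) lower, of 14 tested. The collagen receptor subunits moved in both directions: Itga11 (-6.64 ± 0.86) was lower, and Itga1 (2.80 ± 0.48) and Itgb1 (1.49 ± 0.21) were higher in SM-like cells. Itga11 was at 0.335 and 2.83 CPM in SM-like cells and 78.1 and 115.5 in kept FB-like cells. Of the cross-linking enzymes Loxl1 (-1.45 ± 0.22) was lower, of 5 tested. Among regulators Scx (5.03 ± 0.94), a transcription factor of tendon, was higher and Tgfbr2 (-1.37 ± 0.26) lower, of 15 tested, and of 11 export genes Creb3l1 (-1.87 ± 0.27) was lower. Each of these passed an adjusted p of 0.05 in edgeR.

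Against all EC-like cells, 6 of 68 tested list genes were higher and 3 lower in SM-like cells, against 1.75% of all genes tested called higher and 3.07% called lower. The cross-linking enzymes Lox (2.72 ± 0.53) and Loxl1 (1.52 ± 0.26), Pcolce2 (4.01 ± 0.74), Timp2 (1.205 ± 0.23), Itgb1 (0.998 ± 0.18) and the growth regulator Ccn2 (1.01 ± 0.22) were higher. Colgalt2, a collagen galactosyltransferase, was lower, at 0.0115 and 0.0369 CPM (1 and 3 counts) in SM-like cells and 7.06 and 70.7 CPM in EC-like cells, and so few counts give no usable fold. Itga1 (-1.42 ± 0.31) and Timp3 (-0.76 ± 0.14) were lower too. With kept EC-like cells 16 were higher and 2 lower of 67 tested, against 3.32% of all genes tested called higher and 4.06% called lower. In this fit 5 of 15 tested hydroxylation genes were among the higher ones, led by P3h4 (5.31 ± 1.40), Plod2 (4.36 ± 1.25) and P3h3 (4.26 ± 1.25). In kept EC-like cells P3h4 was at 1.95 and 3.34 CPM, Plod2 at 5.52 and 5.02 and P3h3 at 4.22 and 7.52. The sizes and ranks of these folds thus rest on few counts. Plod1 went in the opposite direction to Plod2, the lysyl hydroxylase of the collagen telopeptides. In FB-like against all EC-like cells 5 of 68 were higher and 1 lower, against 0.697% and 0.875% of all genes tested, led by Pcolce2 (6.06 ± 0.53) and Mmp2 (5.90 ± 0.78), with Itga1 lower (-2.90 ± 0.45).

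Type I collagen is mostly a trimer of 2 alpha 1 chains and 1 alpha 2 chain, so the balance of Col1a1 and Col1a2 counts was compared. The ratio of Col1a1 to Col1a2 counts was 0.661 and 0.681 in pools A and B of the SM-like class, 0.981 and 0.884 in all FB-like cells and 0.976 and 0.952 in kept FB-like cells. SM-like cells were lower in both pools and the classes did not overlap, but 2 pools allow no exact test to reach 0.05. In the unnamed cells the ratio was 0.461 and 0.645. Per length the ratio itself is not fixed: in SM-like cells it was 1.25 and 1.29 per kilobase of all exons joined, and 0.596 and 0.615 per kilobase of the longest transcript, while the ratio between classes does not depend on length.

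Single cells gave the balance a further reading. Col1a1 made up a median of 38.9% and 40.2% of the Col1a1 and Col1a2 counts in single SM-like cells of pools A and B with at least 20 such counts, and 48.1% and 48.8% in kept FB-like cells. Col1a1 exceeded Col1a2 in 55 and 48 SM-like cells (19.2% and 19.8%), and in 16 of 39 and 9 of 23 kept FB-like cells (41.03% and 39.1%). The ratio of Col3a1 to Col1a1 counts was higher in SM-like cells, at 1.21 and 0.967, than in FB-like cells, at 0.808 and 0.714.

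**Figure D3:**
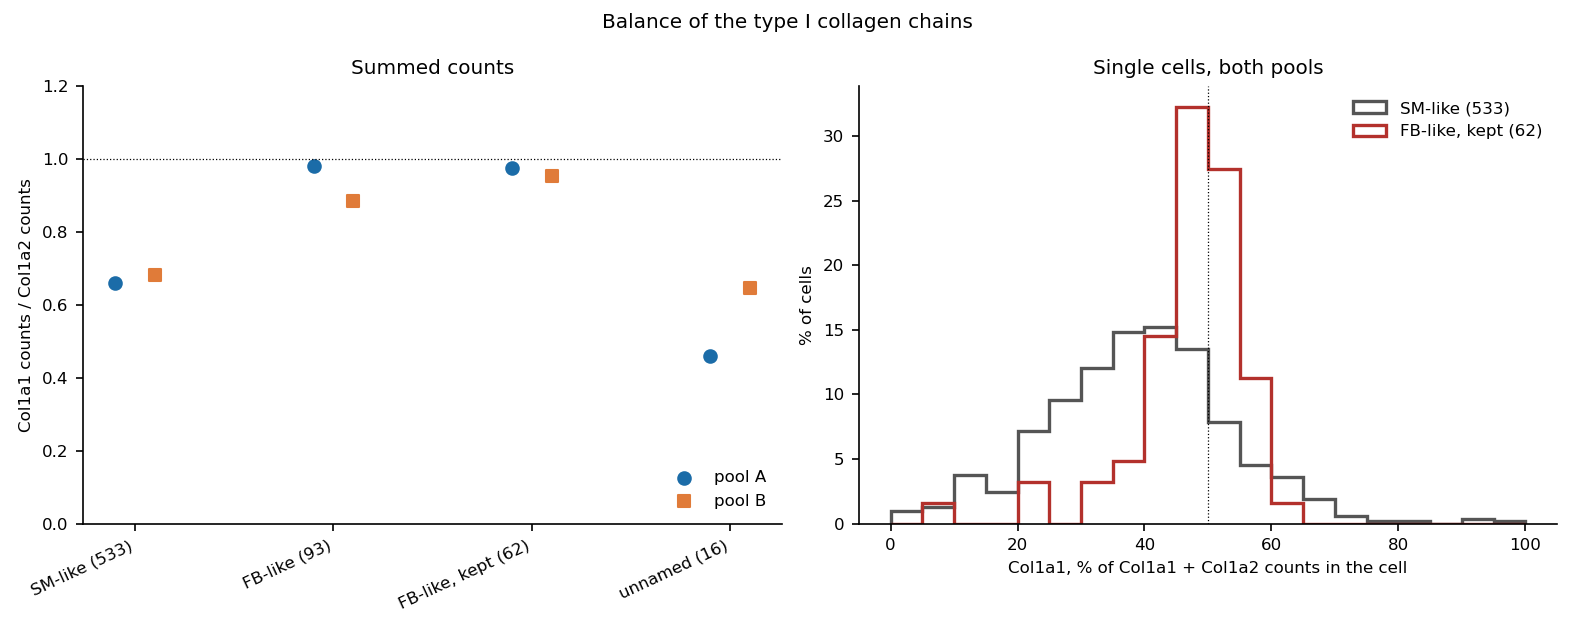
Left, the ratio of summed Col1a1 to Col1a2 counts by class, with pool A as circles and pool B as squares; right, the share of Col1a1 among the Col1a1 and Col1a2 counts of single cells, as a percentage of the cells of a class. SM-like cells lie at 0.661 and 0.681 and kept FB-like cells at 0.976 and 0.952.

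Among single SM-like cells the type I and III chains and Serpinh1 were near-universal. After each cell was thinned to 20000 counts, Col1a1 had a count in 98.3% and 99.6% of SM-like cells (pool A, then pool B), Col1a2 in 99.3% and 100%, Col3a1 in 98.97% and 100%, and Serpinh1 in 95.9% and 97.1%. For comparison, Col1a1 had a count in 5 of 14 and 7 of 7 thinned kept EC-like cells, at median levels of 21.3 and 57.1 CPM, against 979 and 869 CPM in SM-like cells. The level was thus far lower in kept EC-like cells of both pools, while the share with a count was lower in pool A and not in pool B. Col5a1 (66.7% and 60.3%) and Col5a2 (78.01% and 76.9%) were found in most thinned SM-like cells.

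The counts of Pcolce and Plod1 lay mostly in a minority of SM-like cells. Their mean levels were far below those of the type I and III chains. No chain of like level was split in the same way, so a difference from the chains apart from level was not tested. Pcolce had a median of 4.07 and 7.40 CPM in SM-like cells of pools A and B, far below its mean of 62.3 and 72.8. Its counts lay in a minority: 54 cells (18.6%) and 51 cells (21.1%) with at least 100 CPM carried 93.4% and 86.9% of them. These cells held the fibroblast markers other than Gsn at a median of 24.1 CPM in pool A, against 31.6 in the other SM-like cells, and at 48.3 against 37.1 in pool B. Their median Myh11 was 3921 CPM in pool A and 3458 in pool B, against 4495 and 3346 in the others, so they did not lack the contractile marker. For Plod1, 71 cells (24.4%) and 94 cells (38.8%) at 100 CPM or more carried 89.9% and 91.3% of its counts. In kept FB-like cells Pcolce was found in 89.7% and 100% of thinned cells, against 24.1% and 34.3% of SM-like cells.

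**Figure D4:**
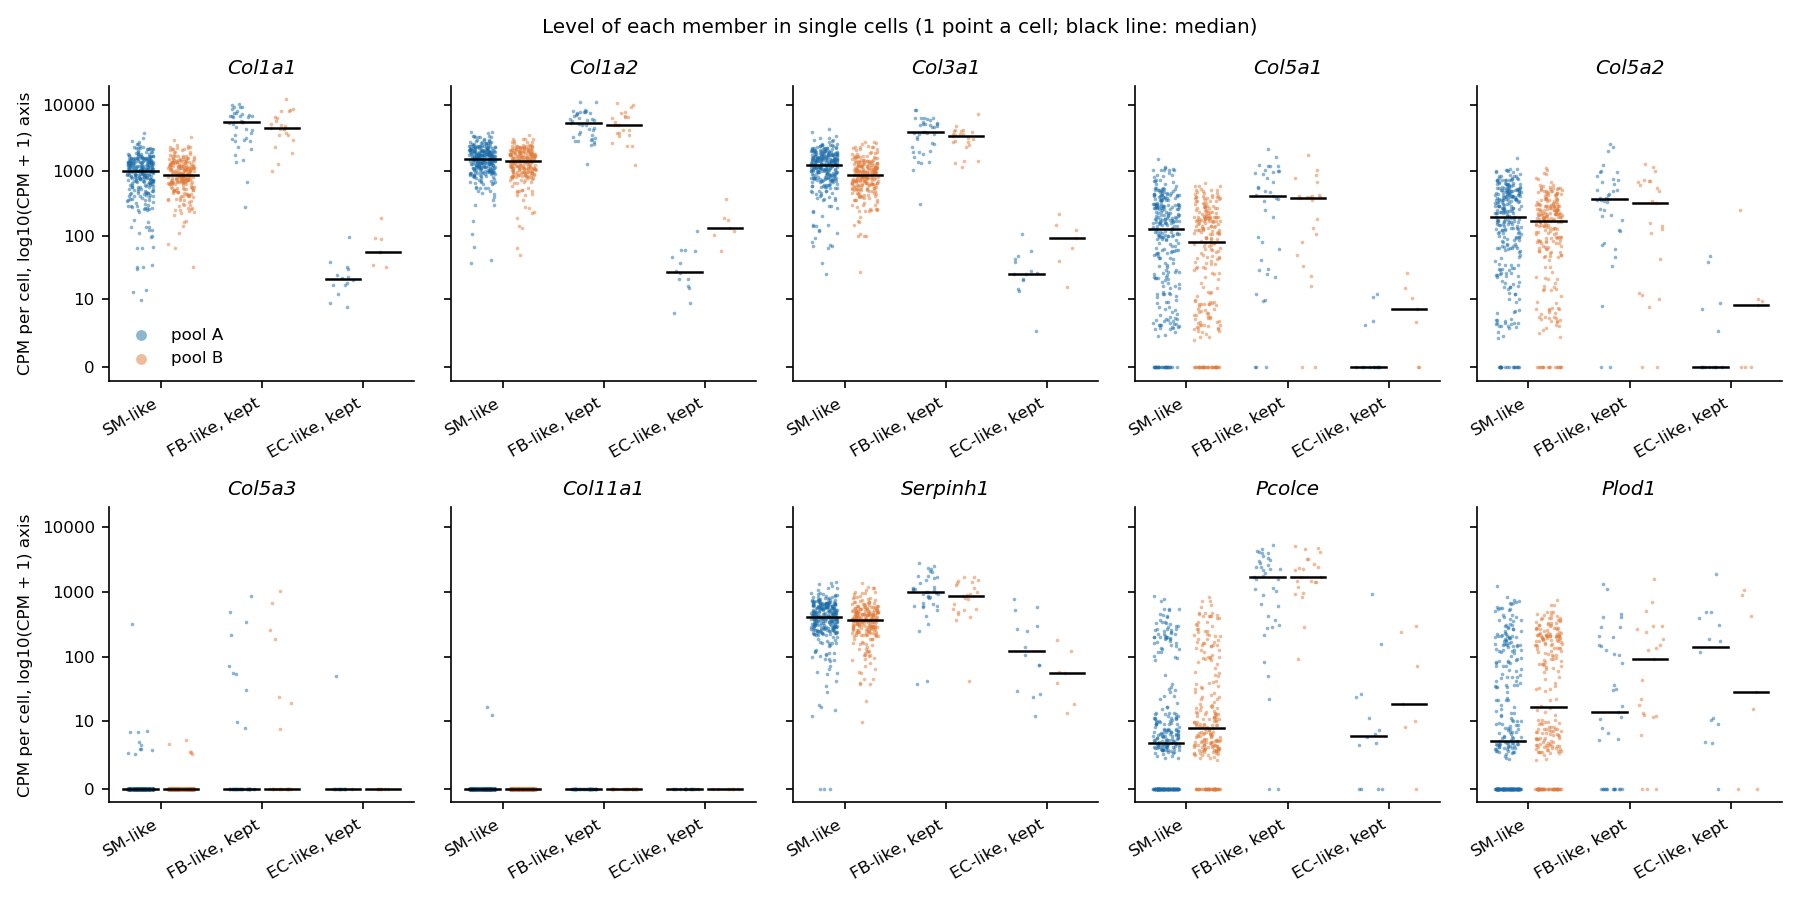
Level of each plotted gene in single cells on a log10(CPM + 1) axis, with 1 point a cell, pools A and B in 2 colours and a black line at the median, for SM-like, kept FB-like and kept EC-like cells. Col1a1 and Col1a2 form a compact band in SM-like cells, whereas Pcolce and Plod1, at far lower mean levels, spread from 0 to above 100 CPM.

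Over single cells the correlations between members were weak in SM-like cells and higher in kept FB-like cells, a difference that was not tested. Over the 28 pairs of the 8 members other than Col5a3 and Col11a1, the median Spearman rho in pools A and B was 0.089 and 0.074 in SM-like cells, and 0.26 and 0.31 in kept FB-like cells. The highest rho was that of Col1a1 with Col1a2, at 0.39 and 0.46 over SM-like cells and 0.87 and 0.93 over 39 and 23 kept FB-like cells. The neighbours Col3a1 and Col5a2 had a rho of 0.14 and 0.28 in SM-like cells and 0.40 and 0.56 in kept FB-like cells. Cells of a pool share their plate, and members share each cell's depth and size factor, so these values are descriptions. In SM-like cells the rho of Col1a1 CPM with the total counts of the cell was 0.14 and 0.18 in pools A and B. It was -0.039 and -0.14 in kept FB-like cells, and -0.13 and -0.39 in all FB-like cells.

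**Figure D5:**
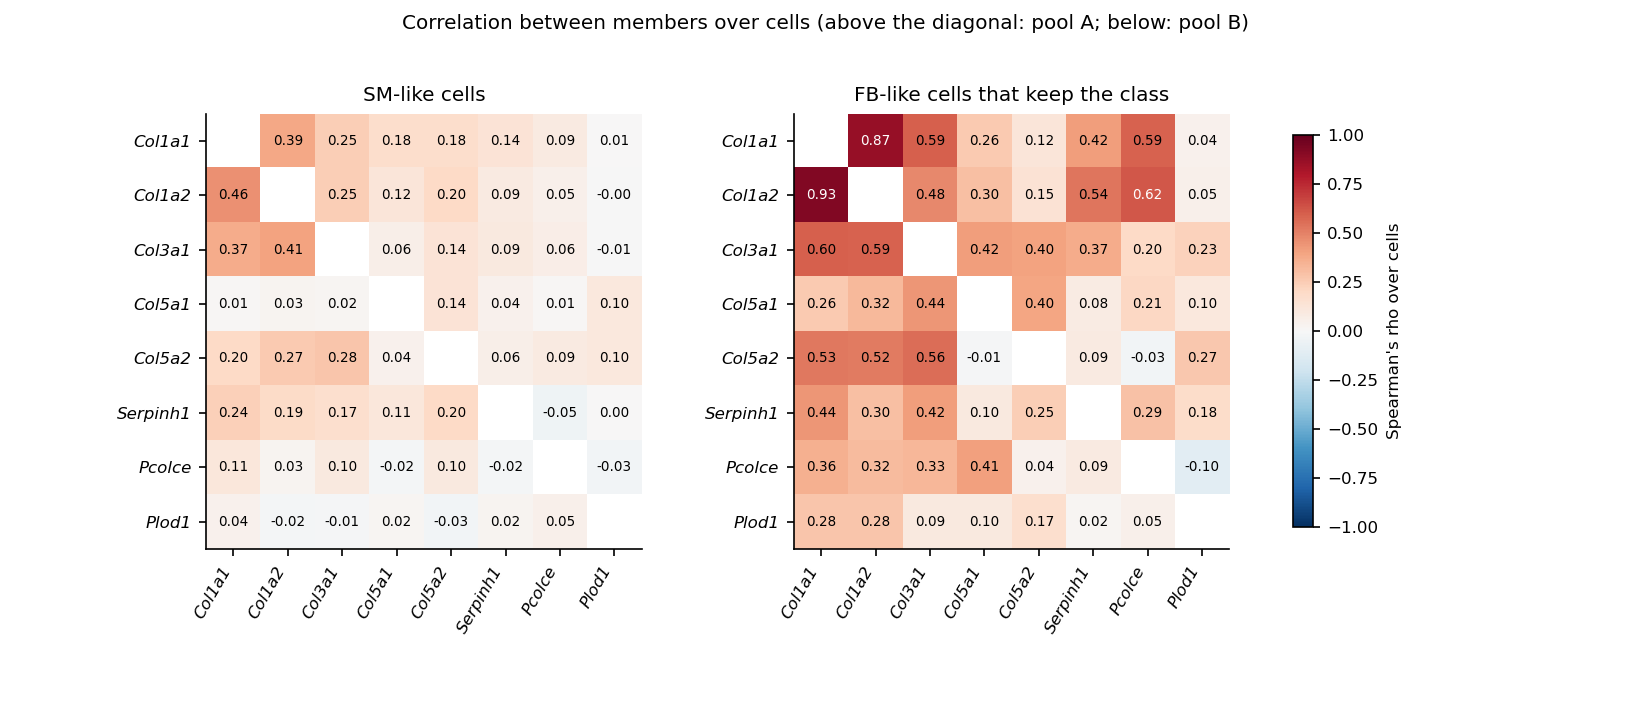
Spearman's rho between members over single cells, with pool A above the diagonal and pool B below it, in SM-like and in kept FB-like cells. The pair Col1a1 and Col1a2 is highest in both classes, and the FB-like panel holds more pairs above 0.3 (12 and 14 of 28) than the SM-like panel (1 and 3).

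The genes most like the summed level of Col1a1, Col1a2 and Col3a1 in their pattern over cells were named by rank. In SM-like cells, over 1913 genes with at least 100 CPM in both pools, the mean rho of the 2 pools was highest for Eln (0.48), the gene of elastin, then for Sparc (0.31), Aebp1 (0.31), Fstl1 (0.30), Col6a2 (0.30), Mfap4 (0.29), Tns1 (0.28) and Axl (0.26), against a median of 0.01 over all of them. In all FB-like cells, over 1649 genes, it was highest for Sparc (0.80), a collagen-binding matrix protein, then for Serpinf1 (0.76), Tgfbi (0.75), Cygb (0.71), Olfml3 (0.69), Adamts2 (0.68), Cst3 (0.66) and Serping1 (0.63), against a median of -0.03. Sparc was the 1 gene of both lists. The FB-like class here includes the cells that became SM-like in the finer clustering, so the difference between those cells and the others is part of these values.

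Within SM-like cells no member was called between the main subclusters. Subcluster 1 (21 cells of pool A and most of pool B), led by Tnnt2, Bcl6 and Myh6, was set against subcluster 0 (most of pool A and 38 cells of pool B), led by Cldn5, Fosb and Adnp. The log2 fold changes of the 8 tested members ranged from -0.14 for Col5a1 to 0.16 for Col1a1 (SE 0.13 to 0.29). No other gene was called either, 0% of the 8117 tested in edgeR at an adjusted p of 0.05. At an unadjusted p under 0.05 there were 386 genes, and DESeq2 called 51. Col1a1 was at 1124 and 1002 CPM in subcluster 1 of pools A and B, and at 1039 and 862 in subcluster 0. Col1a2 was at 1483 and 1446 CPM in subcluster 1, and at 1588 and 1455 in subcluster 0. The subclusters are uneven between the pools, so the 21 cells of pool A and the 38 of pool B limit this comparison.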

How the data were processed

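The authors deposited a table of read counts, with whole numbers for 46517 gene rows and 675 cells (367 in pool A, 308 in pool B). SM-like cells numbered 291 and 242 in pools A and B. Bowtie, Bowtie2, Subread, featureCounts and bcl2fastq are the tools, and GRCm38 (mm10) the genome, named in the submitters' processing notes; versions, strand setting and duplicate removal are not given there. Symbols and lengths came from the GENCODE annotation of GRCm38 and 0.217% of all counts lay in 512 identifiers that have no symbol. All 675 cells passed a minimum of 1000 genes and 20000 counts. No doublet caller was run.

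Members and lists were chosen with earlier results of these data known. Genes were divided into 23258 for clustering (with all markers) and 23222 for testing (with all members and lists). Clustering and testing used the same cells, so the tests are not independent of the classes. Counts scaled to 10000 per cell and logged gave 2000 variable genes, 20 principal components, a graph of 15 neighbours and, from it, clusters by the Leiden method at resolution 0.5, with 1.0 as the finer clustering (scanpy 1.11.5, leidenalg 0.10.2, Python 3.11.15). A possible name needed at least 3 markers at 100 CPM. Possible names were ranked by markers among the 10 leading genes of the cluster, then by relative marker level. The first was kept only with a marker among the leading genes or with all its markers at 100 CPM, and otherwise the cluster stayed unnamed. Both SM-like clusters had 0 markers among their leading genes and were named through all 7 markers at 100 CPM. The order and the last condition were chosen after the data were seen.

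Sums over the cells of each class and pool were fitted in edgeR 4.0.16 (R 4.3.3; filterByExpr, TMM, quasi-likelihood F test, pool as a block, Benjamini-Hochberg adjustment over all testing genes, threshold 0.05). The labels give the mice of each cell, so classes of a pool are paired. As a check, pool deviations correlated across genes with r = 0.157 for SM-like with FB-like, 0.181 for SM-like with EC-like and 0.0493 for FB-like with EC-like sums. Named genes are all members, up to 4 called genes per list and comparison with the largest fold change, and the 8 genes most like the summed Col1a1, Col1a2 and Col3a1; Timp2, Timp3 and Mrc2 were named after their values were seen. The restrictions to kept EC-like cells and to SM-like cells low in fibroblast markers were chosen after the data were seen. Intervals are exact (Poisson or Clopper-Pearson, 95%), floors are 3 counts, and both cover counting error only, as Smart-seq2 reads are PCR copies that no molecular identifier tells apart. DESeq2 1.42.0 and limma 3.58.1 gave alternatives.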

Additional observations from a re-analysis of the deposited data

How the results depend on the processing

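Alternatives were counted for single log2 fold changes of members and of the list genes called in the main fits. Of these, 403 kept their direction and side of the threshold, 60 passed it, 53 lost it and 1 changed direction. The list genes counted were all called in the main fits, so the 60 are all values of members. SM-like against FB-like cells had 1.17% of the genes tested and 2 members called. The genes came to 0.644% with DESeq2 size factors, 11.7% with DESeq2, 0.548% with all 3 classes in 1 fit, 4.22% at resolution 0.25, 6.03% at resolution 1.0, 3.86% with cells weighted equally (limma) and 5.88% with kept FB-like cells. The members numbered 4 without a filter, 1 with DESeq2 size factors, 6 with DESeq2, 1 without the replicate block, 6 at resolution 0.25, 7 at resolution 1.0, 1 with deep cells only (at least 2000 genes and 100000 counts), 6 with cells weighted equally and 7 with kept FB-like cells. SM-like against EC-like cells had 4.82% of genes and 3 members called. The genes came to 14.8% with DESeq2, 1.75% without the replicate block, 2.75% with all 3 classes in 1 fit, 7.27% at resolution 0.25 and 7.38% with kept EC-like cells. The members numbered 5 without a filter and at resolution 0.25, 6 at resolution 1.0 and 7 with kept EC-like cells. They numbered 4 with DESeq2 and with cells weighted equally, and fell to 2 without the replicate block, with all 3 classes in 1 fit and with deep cells. FB-like against EC-like cells had 1.57% of genes and 3 members called. The genes came to 2.01% without a filter, 10.6% with DESeq2, 0.979% without the replicate block, 2.82% at resolution 0.25, 5.50% at resolution 1.0, 0.938% with deep cells, 4.52% with kept FB-like and 4% with kept EC-like cells. The members numbered 7 with DESeq2, 6 at resolution 0.25, 7 at resolution 1.0, 5 with cells weighted equally, 7 with kept FB-like and 6 with kept EC-like cells. They numbered 4 without a filter, and fell to 2 without the replicate block and with deep cells. Between subclusters the 0% of genes called became 0.246% without a filter and 0.727% with DESeq2. The cause of these differences was not tested.

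The mean ratio of Col1a1 to Col1a2 in SM-like cells was 1.27 per kilobase of all exons and 0.605 per kilobase of the longest transcript, and in FB-like cells 1.77 and 0.841. With 1 pool left out no residual degree of freedom was left, so these are values with no test. The log2 fold change of Col5a3 in SM-like against EC-like cells turned to 1.39 without pool A, where the EC-like cells of pool B held 0 counts, and that of Serpinh1 to -0.0526 without pool B. Plod1 in FB-like against EC-like cells turned to 0.23 with kept FB-like cells. The restriction of SM-like cells to under 100 CPM of all fibroblast markers was not run, since 9 and 3 cells were left. For the subcluster comparison, subclusters at resolution 1.0 and a fit with all 3 classes were not run. The 11 EC-like cells of pool B, 7 of them kept, limit every comparison with that class.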
